A study of Mus musculus with 12 samples.

Results

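The 6 genes of the IkappaB family, Nfkbia, Nfkbib, Nfkbie, Nfkbiz, Nfkbid and Bcl3, were taken by their gene symbols from the 18193 genes that could be tested on the arrays, and all 6 were measured. The study profiled macrophages grown in M-CSF from the bone marrow of C57Bl/6 mice on 12 Affymetrix arrays, in 4 groups of 3 biological replicates lettered A, B and C. Every culture passed through 18 h of pretreatment, an exchange of medium, 2 h of rest and a last stimulation of unstated length. Untreated cells received no lipopolysaccharide (LPS, the bacterial cell wall component sensed by macrophages) at either step. Cells given LPS once received 100 ng/ml at the last step only. Pretreated cells received 100 ng/ml for the 18 h and none afterwards. Restimulated cells received 100 ng/ml at both steps. The design asks how a macrophage that has already met LPS answers a later dose.

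IkappaB proteins carry ankyrin repeats through which they bind NF-kappaB, the transcription factor that LPS activates through Toll-like receptors. The classical members IkappaB-alpha (Nfkbia), IkappaB-beta (Nfkbib) and IkappaB-epsilon (Nfkbie) hold NF-kappaB dimers in the cytoplasm until the IKK kinase complex marks them for destruction, and some of their genes are themselves NF-kappaB targets, which closes a negative feedback loop. The nuclear members IkappaB-zeta (Nfkbiz), IkappaB-NS (Nfkbid) and BCL3 (Bcl3) are bound to NF-kappaB on chromatin and raise or lower the transcription of selected genes, among them the cytokine genes of macrophages.

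RefSeq start sites (build GRCm38.p6) were in hand for 5 of the 6 genes, all but Nfkbiz, and each window ran from 250 bases before the start to 20 bases after it. Windows of 4 genes are shown because 2 classical genes and Bcl3 hold a match to the kappaB consensus, the 10-base element bound by NF-kappaB, whereas Nfkbib holds none. Capitals mark the match, sought on both strands, and each sequence reads 5′ to 3′ along the strand of the gene.
Nfkbia: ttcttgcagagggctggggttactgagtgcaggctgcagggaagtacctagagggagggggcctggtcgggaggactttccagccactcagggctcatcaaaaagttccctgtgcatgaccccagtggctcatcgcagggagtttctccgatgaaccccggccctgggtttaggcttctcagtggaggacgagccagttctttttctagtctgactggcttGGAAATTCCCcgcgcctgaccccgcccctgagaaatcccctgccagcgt
Nfkbib: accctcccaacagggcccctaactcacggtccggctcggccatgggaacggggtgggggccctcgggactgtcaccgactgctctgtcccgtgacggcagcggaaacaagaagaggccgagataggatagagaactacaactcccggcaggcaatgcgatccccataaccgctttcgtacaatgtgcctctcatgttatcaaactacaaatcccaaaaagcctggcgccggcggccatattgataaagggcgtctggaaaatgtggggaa
Nfkbie: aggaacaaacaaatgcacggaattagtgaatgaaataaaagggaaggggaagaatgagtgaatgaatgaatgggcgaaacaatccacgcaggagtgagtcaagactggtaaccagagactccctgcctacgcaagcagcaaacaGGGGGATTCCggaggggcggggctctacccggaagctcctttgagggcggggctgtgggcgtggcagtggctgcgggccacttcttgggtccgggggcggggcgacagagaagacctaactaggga
Bcl3: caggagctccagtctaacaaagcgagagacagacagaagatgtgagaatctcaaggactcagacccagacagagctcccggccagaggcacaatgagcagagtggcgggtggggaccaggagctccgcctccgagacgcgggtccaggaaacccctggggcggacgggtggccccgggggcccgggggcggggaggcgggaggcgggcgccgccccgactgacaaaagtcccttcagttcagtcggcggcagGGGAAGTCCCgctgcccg
The Nfkbia window lies at chr12:55492628-55492897 on the minus strand, and its match begins at position -29 relative to the start. The Nfkbib window lies at chr7:28766625-28766894 on the minus strand. The Nfkbie window lies at chr17:45555450-45555719 on the plus strand, with its match beginning at -106. The Bcl3 window lies at chr7:19822736-19823005 on the minus strand, and its match begins 3 bases into the transcript. Nfkbid has 3 listed start sites, of which the middle one, at chr7:30422156-30422425 on the plus strand, has 2 matches and the others have none. Such a match was found in 7.69% of all 32851 windows of this length, and 1.12% held 2 or more. A match describes the letters in the window and was not tested for binding.

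The 7 macrophage markers examined had medians over the 12 arrays from an intensity of 738 for Mertk to 15597 for Lyz2. Mertk, a receptor for dying cells, differed between the groups: it averaged 1670 in untreated cells, 137 after LPS once, 1600 in pretreated cells and 431 in restimulated cells. Of 37 measured markers of 10 other cell types, 32 stayed at or below 277 on every array. Fibroblast collagen genes followed the replicate letter: Col1a1 lay between 507 and 1991 on the A and B arrays of all groups and between 37.8 and 42.3 on the C arrays. The summed fibroblast markers ranged from 202 to 8006 in untreated cells, 284 to 6422 after LPS once, 253 to 5139 in pretreated cells and 211 to 5152 in restimulated cells. The platelet factor gene Pf4 averaged 4240 in untreated cells, 4870 after LPS once, 7280 in pretreated cells and 7180 in restimulated cells. The part of these marker differences in the results was not tested. The neutrophil granule gene Ngp ranged from 32.0 to 959 over the arrays. The array of restimulated replicate C had a mean intensity of 247 against 310.0 to 317 on the other 11, and 91.6% of 6228 genes of middling intensity were lower on it than on the other restimulated arrays. Pretreated replicate A read lower than pretreated B and C for all 6 IkappaB genes, although its mean intensity of 313 was ordinary. For Nfkbib it was nearly level with C, at 305.11 against 305.5. Where leaving out either array ended a call, turned a direction or moved a called value by over 1.5 times, both values are given.

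LPS given once raised 4 of the 6 genes at least 2-fold, Nfkbib, Nfkbie, Nfkbiz and Bcl3, where 3.9% of all genes were called higher. A call required a limma adjusted p under 0.05 and a change of at least 2-fold on the log2(intensity + 16) scale, on which all fold changes are given. Among genes called in this comparison, 30% were higher, a split that became 55% when arrays were scaled on genes of middling intensity. After pretreatment the restimulated cells again raised 3 of 6, Nfkbib, Nfkbie and Nfkbiz, with 0.665% of all genes called higher, and in that comparison the higher share of calls was 34.1%, or 61.1% with the same scaling. Nfkbia is in neither count because the probe set used for it, though past the p threshold, rose by under 2-fold. Most of its other probe sets were called in both responses. All 6 genes had groups that did not overlap in the first comparison, where 29.6% of all genes were higher without overlap, and 4 of 6 in the later one, where 7.99% were. The median change of the family was 2.10 log2 units in the first response and 0.99 in the later response, against 0.04 and -0.02 over all genes. Fitted on the 6 pretreated and restimulated arrays alone, limma called 0 members for the later response and 1 gene in all. Because these are whole cultures, fewer cells of one type and less RNA per cell cannot be told apart.

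**Figure D1:**
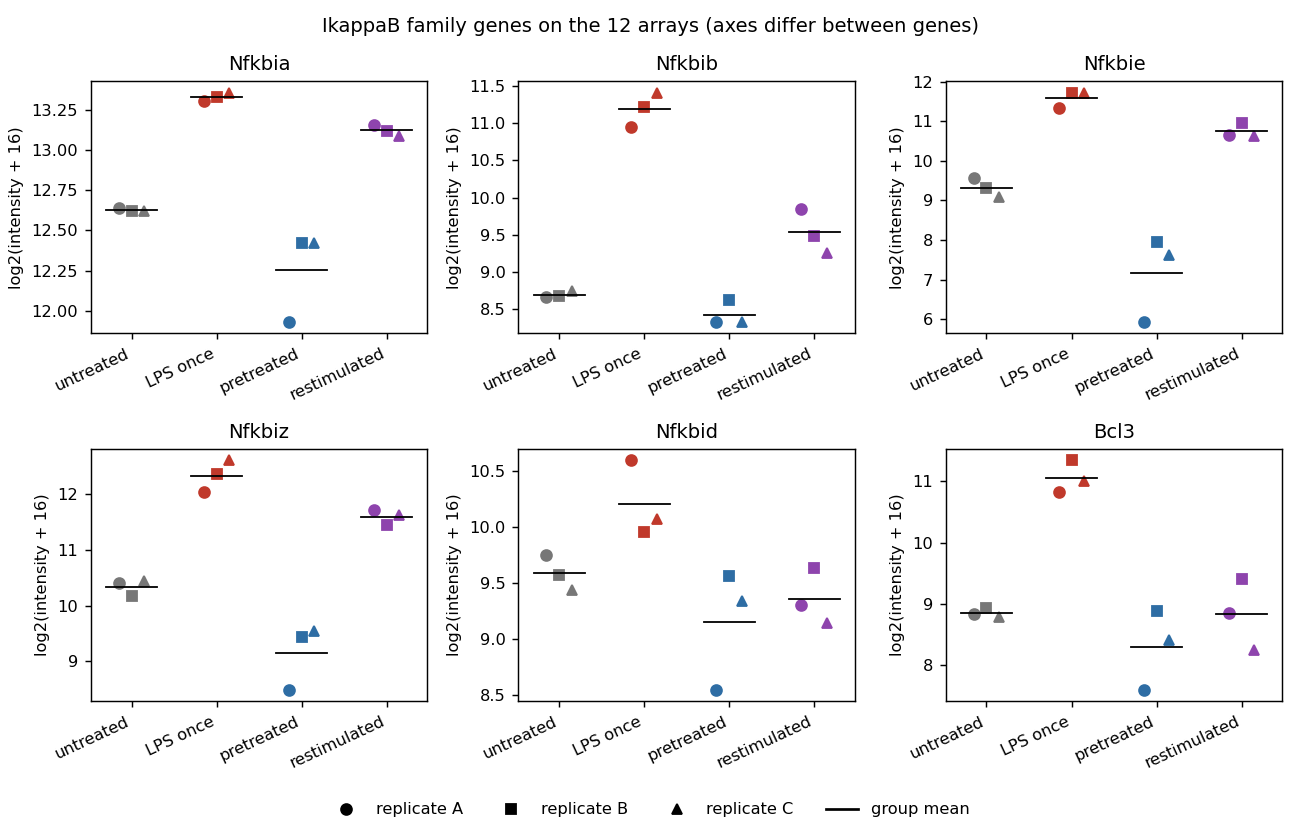
Level of each IkappaB gene on each of the 12 arrays, as log2(intensity + 16) on the vertical axis (ranges differ between genes), by group; markers are the 3 replicates and lines the group means. For Nfkbib and Bcl3 the restimulated arrays sit far below the arrays of cells given LPS once. For Nfkbia, Nfkbib, Nfkbie and Nfkbiz both groups given late LPS sit above both groups that were not.

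Nfkbia encodes IkappaB-alpha, the inhibitor that is degraded and remade fastest after stimulation. Its intensity was 6346, 6280 and 6277 in untreated replicates A, B and C, and 10144, 10248 and 10507 after LPS once. It was 3897, 5462 and 5479 in pretreated cells and 9127, 8860 and 8727 in restimulated cells. The 4 groups did not overlap, with pretreated cells lowest, then untreated, restimulated and LPS once. The gene rose by 0.71 ± 0.11 log2 units (SE; limma adjusted p = 0.00113) after LPS once and by 0.86 ± 0.11 (adjusted p = 0.00652) on restimulation, under 2-fold in both. These values come from the probe set with the highest mean of its 5. On 3 others the first change was 1.46, 1.69 and 1.98 log2 units and the later one 1.44, 1.72 and 2.03, all past 2-fold, while the dimmest gave 0.99 and 0.83. The difference between the later and the first response ranged from -0.15 to 0.16 over the 5 probe sets, and for the brightest its 95% interval ran from -0.20 to 0.51 (adjusted p = 0.715). On the brightest probe set restimulated cells held 86.5% of the level after LPS once, a change of -0.21 log2 units. The other 4 probe sets gave larger drops, from -0.43 to -0.72.

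Nfkbib encodes IkappaB-beta, which is degraded and resynthesised more slowly than IkappaB-alpha. Its intensity was 393, 394 and 412 in untreated replicates A, B and C, and 1967, 2356 and 2712 after LPS once. It was 305, 377 and 306 in pretreated cells and 904, 705 and 598 in restimulated cells. No pair of groups overlapped, and the restimulated arrays lay between the untreated cells and the cells given LPS once. LPS once raised it by 2.49 ± 0.16 log2 units (5.64-fold; adjusted p = 8.49e-06), and restimulation by 1.11 ± 0.16 (2.16-fold; adjusted p = 0.0083). The later response was smaller than the first, with a difference of -1.39 ± 0.22 log2 units (95% interval -1.88 to -0.89; adjusted p = 0.0117). It was smaller in 3 of 3 letters, with differences of -0.76, -1.66 and -1.74 for A, B and C. Of the 6 members 1, Nfkbib, had a called difference between the responses, where 1.44% of all genes were called lower. Without restimulated replicate C the difference was -1.25 (adjusted p = 0.00979). The later response itself was 0.95 log2 units, under 2-fold, without restimulated replicate A. The other Nfkbib probe set was dim, at 17.6 to 102 on the 12 arrays, and gave 0.31 for the later response and -0.86 for the difference (adjusted p = 0.132, over all probe sets with 1 symbol).

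Nfkbie encodes IkappaB-epsilon, a classical inhibitor produced after stimulation that acts on dimers of RelA and c-Rel. Its intensity was 737, 621 and 533 in untreated replicates A, B and C, and 2575, 3346 and 3378 after LPS once. It was 45.2, 230 and 181 in pretreated cells and 1594, 1978 and 1585 in restimulated cells. Each group was separate from the others, and the pretreated arrays were below every untreated array. Restimulation raised Nfkbie by 3.59 ± 0.42 log2 units (12-fold; adjusted p = 0.00457), ranked 8 of 18193 genes. Without pretreated replicate A, whose value of 45.2 was the lowest of all 12, the rise was 2.97 log2 units (7.84-fold, rank 10; adjusted p = 0.000678), and by letter it was 4.72 for A, 3.02 for B and 3.03 for C. LPS once raised Nfkbie by 2.27 ± 0.42 (4.82-fold; adjusted p = 0.00269). The difference between these responses, 1.32 ± 0.60, did not pass the test (adjusted p = 0.295), and was 0.70 (adjusted p = 0.19) without pretreated replicate A. The other Nfkbie probe set gave 2.55 for the first response and 3.16 for the later one. Its difference was 0.61 (limma adjusted p = 0.58), by letter 1.81 for A, 0.40 for B and -0.39 for C.

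Pretreatment alone left the family between 22.4% and 82.7% of its untreated level, with 0 of 6 members called by limma where 0.308% of all genes were called lower. At an unadjusted p under 0.05, 3 of 6 were lower, Nfkbia, Nfkbie and Nfkbiz, as were 6.23% of all genes. All 6 members were below their untreated partner in 3 of 3 letters, as were 20.6% of all genes, and some of these differences were small, such as -0.02 for Nfkbid and -0.04 for Bcl3 in letter B. Nfkbie had the lowest share, 22.4%, a change of -2.16 ± 0.42 log2 units (adjusted p = 0.053). With the replicate letters as a block it was called (adjusted p = 0.0394), as it was without pretreated replicate A (-1.54; adjusted p = 0.00713), pretreated replicate B (-2.55; adjusted p = 0.0356) or restimulated replicate C (adjusted p = 0.049). Of 25 alternative settings 13 called it. The other Nfkbie probe set gave -1.79 (adjusted p = 0.0352). Nfkbiz stood at 44.2% of untreated, -1.18 ± 0.26 (adjusted p = 0.0767). This comparison and the first response share the untreated arrays.

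Nfkbiz encodes IkappaB-zeta, a nuclear member needed by macrophages for a set of late cytokine genes. Its intensity was 1339, 1136 and 1385 in untreated replicates A, B and C, and 4199, 5232 and 6245 after LPS once. It was 344, 680 and 735 in pretreated cells and 3350, 2778 and 3156 in restimulated cells. No groups overlapped, and the pretreated arrays were all below the untreated ones. Nfkbiz rose by 1.99 ± 0.26 log2 units after LPS once (3.99-fold; adjusted p = 0.000319) and by 2.44 ± 0.26 on restimulation (5.41-fold; adjusted p = 0.00293). The difference of 0.44 had a 95% interval of -0.37 to 1.25 (adjusted p = 0.618), and its sign was not the same on every probe set: the others gave -0.32 and 0.18. Restimulated cells held 59.9% of the level after LPS once, and on a less bright probe set that comparison was called, at -1.38 ± 0.25 (adjusted p = 0.00621).

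Nfkbid encodes IkappaB-NS, a nuclear member that restrains some cytokine genes. Its intensity was 845, 746 and 679 in untreated replicates A, B and C, and 1524, 973 and 1059 after LPS once. It was 359, 737 and 633 in pretreated cells and 615, 779 and 548 in restimulated cells. The cells given LPS once were above every other array, and the remaining 3 groups overlapped. The first change was 0.61 ± 0.26 log2 units (adjusted p = 0.0984) and the later one 0.21 ± 0.26 (adjusted p = 0.693), and neither passed the test. The later value was -0.09 without pretreated replicate A.

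Bcl3 encodes a nuclear member that holds NF-kappaB subunits without a transactivation domain on DNA. Its intensity was 440, 472 and 424 in untreated replicates A, B and C, and 1809, 2585 and 2028 after LPS once. It was 178, 458 and 326 in pretreated cells and 446, 662 and 288 in restimulated cells. The cells given LPS once stood above all others, which overlapped. LPS once raised Bcl3 by 2.21 ± 0.34 log2 units (4.63-fold; adjusted p = 0.000917), while the later response was 0.53 ± 0.34 (adjusted p = 0.41). By letter the later response was 1.25 for A, 0.52 for B and -0.17 for C. The difference between responses was -1.68 ± 0.48 (adjusted p = 0.0971), smaller in 3 of 3 letters. It was called with the letters as a block (adjusted p = 0.0442) and without pretreated replicate A (-2.03; adjusted p = 0.0388), and was -1.39 (adjusted p = 0.094) without restimulated replicate C. Without that same array the later response was 0.83 (adjusted p = 0.281), and without pretreated replicate A it was 0.18 (adjusted p = 0.811).

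**Figure D2:**
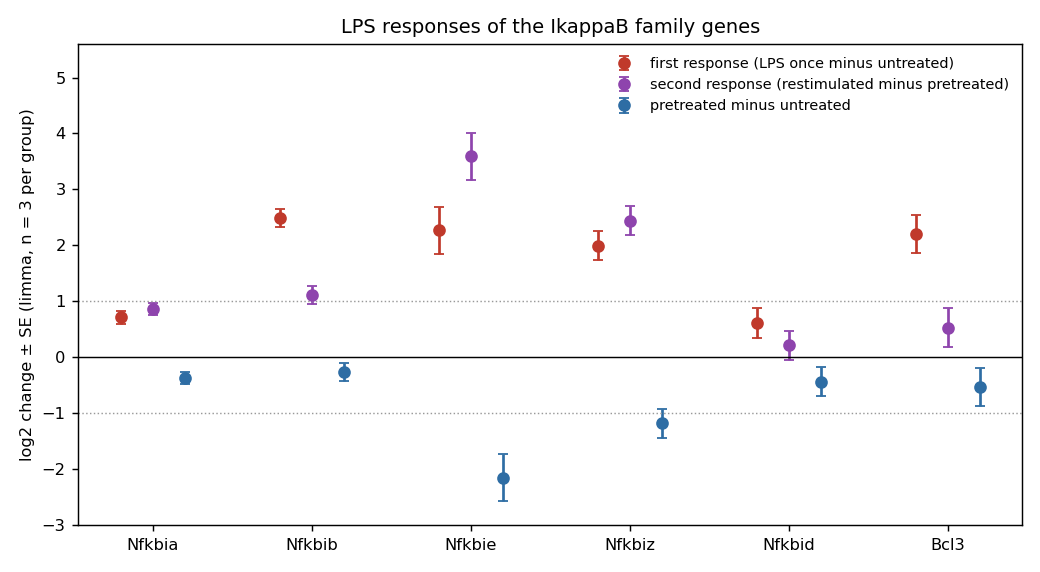
Log2 change of each IkappaB gene (limma estimates, bars are the SE, 3 arrays a group) for the first LPS response, the later response and pretreated against untreated cells. Nfkbib has a later response of 1.11 against 2.49 and Bcl3 of 0.53 against 2.21, while Nfkbie has 3.59 against 2.27. The difference between the responses was called for Nfkbib (limma adjusted p = 0.0117). It was not called for Bcl3 (adjusted p = 0.0971) or Nfkbie (adjusted p = 0.295).

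Set directly against cells given LPS once, restimulated cells had less of 2 of 6 members, where 3.18% of all genes were called lower. The Bcl3 difference was -2.22 ± 0.34 log2 units (21.4% of the level after LPS once; adjusted p = 0.0024). That of Nfkbib was -1.66 ± 0.16 (31.7%; adjusted p = 0.00022). Nfkbid, Nfkbie, Nfkbiz and Nfkbia had 55.7%, 55.8%, 59.9% and 86.5% of that level and were not called (adjusted p from 0.058 to 0.282). On the other probe set of Nfkbie the difference was called, at -1.18 ± 0.30 (adjusted p = 0.0311), as on 1 of Nfkbiz above. The other 4 Nfkbia sets gave -0.43, -0.58, -0.67 and -0.72, all under 2-fold and so not called. Of these, -0.67 (limma adjusted p = 0.0145) and -0.72 (adjusted p = 0.0407) passed the p threshold. The other values, -0.58 (adjusted p = 0.105) and -0.43 (adjusted p = 0.113), did not. All 6 had groups that did not overlap, where 14.1% of all genes were lower without overlap. The family median was -0.84 log2 units against 0 over all genes.

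Restimulated cells exceeded untreated cells for 2 of 6 members, with 1.36% of all genes called higher. Nfkbie stood at 269% of untreated (1.43 ± 0.42 log2 units; adjusted p = 0.0483) and Nfkbiz at 239% (1.26 ± 0.26; adjusted p = 0.0116). The Nfkbie call was lost in 12 of 25 alternative settings, with values from 1.32 to 1.76 and adjusted p from 0.00151 to 0.135 over all 25. It was lost on leaving out any 1 array other than pretreated A or B. Nfkbia at 141% and Nfkbib at 178% were higher by less than 2-fold, with adjusted p of 0.018 and 0.00863. For Nfkbia, 2 other probe sets were called here, at 1.26 ± 0.20 (adjusted p = 0.00497) and 1.02 ± 0.14 (adjusted p = 0.00318). Nfkbib was past 2-fold, and called, with quantile normalization (1.09) and with mid-range scaling (1.17), each of which gave 3 called members. Bcl3 and Nfkbid, at 99.1% and 85.3%, did not pass the test, and their signs turned with the scaling: Bcl3 was -0.01 as deposited and 0.32 with mid-range scaling, and Nfkbid -0.23 and 0.10. Pretreated cells had less than cells given LPS once for 6 of 6 members, where 4.24% of all genes were called lower, from -1.05 ± 0.26 for Nfkbid to -4.43 ± 0.42 for Nfkbie (-3.81 without pretreated replicate A). Nfkbia at -1.07 came under 2-fold without pretreated replicate A (-0.91), as did Nfkbid (-0.75), which was also under it without the LPS once replicate A array (-0.86). The other 4 Nfkbia probe sets were called at -1.27, -2.02, -2.39 and -2.75.

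**Figure D3:**
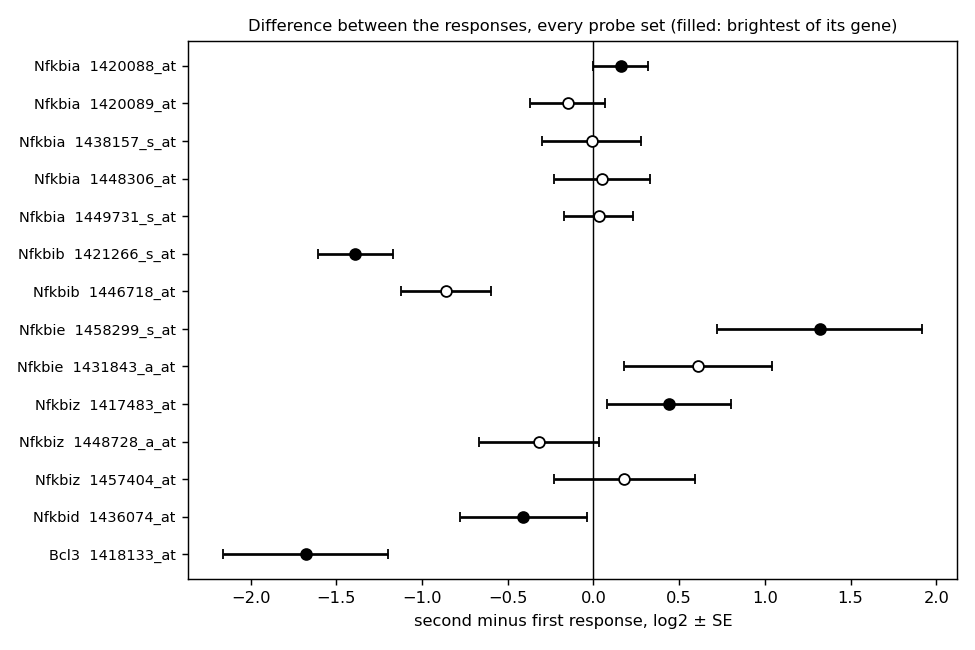
Difference between the later and the first LPS response (log2 units) for each of the 14 probe sets of the 6 genes, with bars for the SE and filled points for the brightest set of a gene. Nfkbib lies at -1.39 and -0.86 and Bcl3 at -1.68, while the 5 Nfkbia probe sets lie between -0.15 and 0.16.

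Over the 12 arrays the log2 values of Nfkbia and Nfkbiz had a Pearson r of 0.991, those of Nfkbia and Nfkbie 0.984 and those of Nfkbie and Nfkbiz 0.981. Bcl3 followed Nfkbib (0.918) more closely than Nfkbiz (0.784), and the pairs of the family lay between 0.665 and 0.991. These are descriptions over 4 groups that share the same arrays and carry no test. The genes with the most similar patterns to Nfkbia were Nfkbiz, Rab20 (0.988), Nfkbie, Relb (0.981) and Ralgds (0.974). Nfkbie was nearest to Rab20 (0.989), Nfkbiz, Relb (0.968), Ralgds (0.965) and Rnf19b (0.955), and Nfkbiz to Nfkbie and Rab20 (0.981 each), Ralgds (0.976), Relb (0.972) and Spred1 (0.971). Nfkbib was nearest to Rhbdf2 (0.99), Nck1, Tlnrd1 and Slc39a14 (0.989 each) and Lztfl1 (0.987). Bcl3 was nearest to 2210408K08Rik (0.984), Mapk6 (0.983), Slc12a4 (0.981), Dcaf13 (0.977) and Plaur (0.976). For Nfkbid the nearest were Aen (0.903), Mthfd2l (0.898), Nolc1 (0.896), Dnajc21 (0.892) and Srm (0.89).

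The partners of the family were described from lists of pathway genes. Over all genes, 3.9% were called higher in the first response and 0.665% in the later one. Of 4 NF-kappaB subunits measured, 3 rose after LPS once: Rel, encoding c-Rel, by 3.22, Nfkb2, encoding the precursor of a partner of RelB, by 2.32 and Relb by 1.64 log2 units. On restimulation 2 of 4 rose, Nfkb2 by 1.85 and Relb by 1.67. The Rel difference between responses was -2.47 ± 0.29 log2 units (adjusted p = 0.00311), beside 0.03 for Relb. The median of the 4 was 1.98 in the first response and 1.21 in the later one.

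Of 12 genes for the kinases and ubiquitin ligase that remove the inhibitors, Ikbke, encoding an IKK-related kinase, was the one called after LPS once (1.42 ± 0.25 log2 units; adjusted p = 0.00193), and the median was 0.18. On restimulation limma called 0 of 12, with a median of 0.02. At an unadjusted p under 0.05, 3 were higher, for which no share over all genes was counted. Ikbke had the largest change there, 1.04 ± 0.25 log2 units (adjusted p = 0.0517). Its restimulated level differed by -0.10 log2 units from that after LPS once (adjusted p = 0.854) and by 1.33 from untreated cells (adjusted p = 0.00869). Ikbkb, which encodes a catalytic subunit of IKK, changed by 0.89 in the first response and 0 in the later one, a difference of -0.88 ± 0.16 log2 units that had an adjusted p of 0.0182 and was under 2-fold. Of 14 receptor-to-IKK genes, the adaptor gene Myd88 (1.13) and the kinase gene Irak2 (1.38) rose after LPS once and Irak2 (1.21) on restimulation, with medians of 0.32 and 0.03.

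Other feedback inhibitors of the pathway numbered 17. After LPS once 8 rose, where 3.9% of all genes were called higher. Nkiras1 fell by 1.24, where 1655 of 18193 genes were called lower. The largest rises were in Tnfaip3 (3.91), which encodes a ubiquitin-editing enzyme, Socs1 (3.48), Zc3h12a (2.44), an RNase gene, and Tnip1 (2.41). On restimulation 4 rose: Tnfaip3 by 3.06, Tnip1 by 1.52, Irak3 by 1.25 and Zc3h12a by 1.25. The difference between responses was called for 0 of 17 by limma, beside 1.44% of all genes called lower. At an unadjusted p under 0.05, 8 were lower, as were 8.95% of all genes. At that cut 2 were higher, for which no share over all genes was counted. The largest differences were those of Nlrc5 (-2.43, adjusted p = 0.128) and Socs1 (-1.97, adjusted p = 0.0898). The medians were 0.33 for the first response, 0.03 for the later one and -0.48 for the difference, against -0.02 over all genes for the difference.

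Genes reported to need IkappaB-zeta in macrophages, 8 in all, were then set beside Nfkbiz itself. All 8 rose after LPS once, led by Il6 (7.64 log2 units), Il12b (5.49), Lcn2 (5.15) and Edn1 (4.58), with a median of 4.39. On restimulation 2 of 8 rose, Il6 by 4.03 and Cebpd by 1.74, and the median was 0.25. The difference between the responses was called lower for 5 of 8, beside the 1.44% of all genes, with values of -5.29 for Il12b, -5.22 for Lcn2, -4.64 for Edn1, -2.72 for Csf3 and -1.37 for Ebi3. All 8 were lower at an unadjusted p under 0.05, as were 8.95% of all genes, and those not called included Il6 (-3.61; adjusted p = 0.0513) and Csf2 (-3.50; adjusted p = 0.153). Lcn2, encoding an iron-scavenging protein, was already 6.28 log2 units higher in pretreated than in untreated cells (adjusted p = 0.0013). Its mean log2 level in restimulated cells, 12.84, was above the 11.79 after LPS once. Ebi3 also stayed high, at 11.12 in pretreated and 11.37 in restimulated cells, against 10.21 in untreated cells and 11.84 after LPS once. For Nfkbiz the difference between the responses was 0.44 (limma adjusted p = 0.618), with -0.32 and 0.18 on its other probe sets. The list was chosen with earlier results of these arrays known. Its counts beside the share of all genes are therefore description and not a test. Whether Nfkbiz and the list part from each other was not tested.

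**Figure D4:**
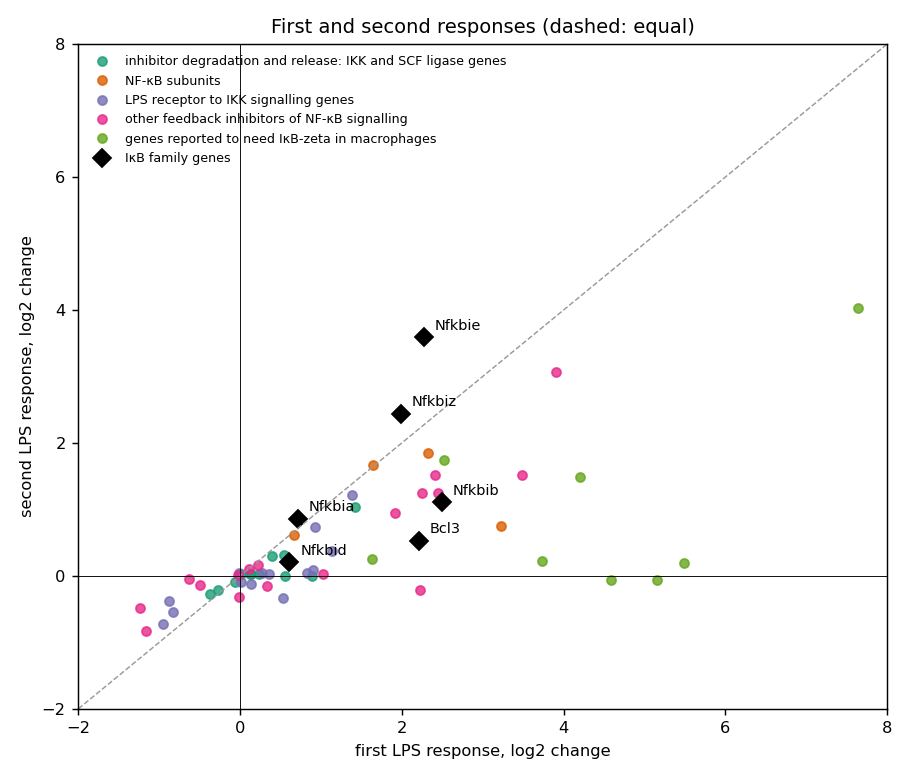
Later LPS response against the first (both in log2 units) for the IkappaB genes and the pathway lists, 1 point per gene, with a dashed line where both are equal. Il12b and Lcn2 have first responses of 5.49 and 5.15 and later ones of 0.20 and -0.07, while Nfkbie and Nfkbiz have later responses of 3.59 and 2.44. The levels of Il12b and Lcn2 differ. Il12b has mean log2 levels of 4.89 in pretreated and 5.09 in restimulated cells, against 10.28 after LPS once. Lcn2 is already at 12.91 in pretreated cells and stays at 12.84 in restimulated cells, above its 11.79 after LPS once.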

How the data were processed

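The deposited values were intensities per probe set on a linear scale, 1 column per array. The sources used here do not give the program or scaling behind them. Labelling followed the Affymetrix standard after TriFast extraction of RNA, per the labels. Of 45101 probe sets, 64 are controls, 34945 have 1 gene symbol, 932 several and 9160 none here. Symbols of 34741 were updated by Entrez number through the RefSeq table (GRCm38.p6). A gene took the probe set with the highest mean log2 intensity, giving 18193 genes, 9010 with several probe sets.

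Group means of log2(intensity + 16) were fitted over all 12 arrays with limma 3.58.1 (R 4.3.3; lmFit and eBayes, 8 residual and 1.71 prior degrees of freedom), with Benjamini-Hochberg adjustment over all genes in each of 7 contrasts. P-values measure the spread between these samples. The script was tested on simulated data. Replicate letters paired the samples: deviations from group means of same-letter arrays correlated at 0.302 to 0.701 (18 pairs), those of different letters at -0.476 to -0.0217 (36 pairs). Deviations from a group mean cancel within the group, so negative values between letters follow on average from the positive ones and are not separate evidence. The main fit left this pairing out, so variation between letters stayed in its error. With the letters as a block, Nfkbie for pretreatment and Bcl3 for the difference between responses were also called.

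The members, gene lists and markers were chosen with earlier results of these data known. Named genes were the 6 members, the called list genes with the largest change (up to 4 a contrast, or the 2 largest where none was called), and the 5 genes with the highest r to each member, among genes with a mean log2 of at least 6 and an SD of at least 0.5. In all, 26 alternative settings were run: other pseudocounts, scalings, probe set rules, filters, the replicate block, fewer arrays, and no minimum fold.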

Additional observations from a re-analysis of the deposited data

Results flagged for a closer look

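The Nfkbib difference between the later and the first LPS response was singled out because the test of that difference passed: -1.39 log2 units, SE 0.22, limma adjusted p = 0.0117. Its responses were 2.49 and 1.11.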

How the results depend on the processing

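Of 1079 recomputed member changes, 1001 kept their direction and side of the threshold, 31 lost a call, 34 gained one and 13 changed sign; of 463 recomputed called changes none changed sign. The later Nfkbid response ranged from -0.09 (without pretreated replicate A) to 0.41 on leaving out single arrays and was -0.06 without all replicate A arrays, a setting chosen after seeing the data. The Nfkbia difference between responses became -0.01 with the next brightest probe set, -0.01 to 0.24 on leaving out single arrays and -0.04 without all A arrays. That of Nfkbiz became -0.32 with the next brightest probe set and -0.13 without all A arrays. Restimulated against untreated, Bcl3 became 0.25 with quantile normalization, 0.32 with mid-range scaling, 0.03 without untreated replicate B and 0.28 without restimulated replicate C, with or without the replicate block, with -0.30 the lowest of its values over all settings, and Nfkbid 0.10 with mid-range scaling. That scaling moved the all-gene median from 0.04 to 0.38 in the first response, -0.02 to 0.26 in the later one, 0.01 to 0.34 for restimulated against untreated and -0.03 to -0.30 for pretreated against LPS once, and the share of calls that were higher went from 25.9% to 56.5% against untreated (42.9% with quantile normalization), 67.6% to 46.2% for pretreated against LPS once and 48.6% to 58.8% for pretreatment.

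Members called for pretreatment rose from 0 to 1 with a pseudocount of 1 or 64, quantile or mid-range scaling, the next brightest or averaged probe sets, or the replicate block, and to 2 with dim genes left out, an intensity trend, or the block without restimulated replicate C (also chosen after seeing the data). For the first response 4 became 5, with Nfkbia called, under mid-range scaling, the next brightest or averaged probe sets, or no minimum fold. It became 3 without _s, _x and _a probe sets, which leave Nfkbie with none. For the later response 3 became 1 without those sets and 0 on the compared arrays alone. For the difference 1 became 2 with mid-range scaling or either block, and 0 with the next brightest probe set or without _s, _x and _a sets. Restimulated against LPS once gave 1 in place of 2 without those sets. Restimulated against untreated gave 1 in place of 2 with a pseudocount of 1, without those sets and with the block without restimulated replicate C, and 4 with no minimum fold. The block changed no other member call than Nfkbie for pretreatment and Bcl3 for the difference.

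All genes called went from 2364 to 6066 (first response), 1029 to 2663 (against LPS once), 958 to 2857 (against untreated) and 2386 to 5323 (pretreated against LPS once) with no minimum fold. Pretreatment calls of 109 became 70 with a pseudocount of 64, 187 with mid-range scaling, 69 without _s, _x and _a sets, 197 with the replicate block, 166 with no minimum fold, 33 without all A arrays and 274 with the block without restimulated replicate C. Later-response calls of 355 became 226 with the next brightest probe set, 734 with no minimum fold, 1 on the compared arrays alone, 7 without all A arrays and 175 with the block without restimulated replicate C. Calls for the difference, 485, became 273, 128 and 921 with the next brightest set, without all A arrays and with that block. Against LPS once 592 were called on the compared arrays alone, and against untreated 502 without all A arrays.

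Leaving out single arrays gave 4 to 4 members and 2213 to 2541 genes in the first response, 0 to 1 and 51 to 152 for pretreatment, 2 to 3 and 95 to 584 in the later response, 1 to 2 and 198 to 735 for the difference, 2 to 2 and 821 to 1167 against LPS once, 1 to 2 and 681 to 1211 against untreated, and 4 to 6 and 2213 to 2575 for pretreated against LPS once. The difference needs all 4 groups and could not be fitted on compared arrays alone. The number of arrays, 3 a group, limits the precision. The causes were not tested.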

Other observations

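The cytokine genes Tnf and Il10, which are not IkappaB genes, gave first responses of 4.32 ± 0.29 and 5.27 ± 0.21 log2 units and later responses of 3.71 ± 0.29 and -0.12 ± 0.21 (SE, limma). The difference between the responses was -0.61 for Tnf (adjusted p = 0.518) and -5.40 for Il10 (adjusted p = 2.77e-05).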
